A study of Saccharomyces cerevisiae with 15 samples.

Results

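The 4 genes described here encode the yeast enzymes, and one close relative of them, that phosphorylate glucose on its entry into the cell: HXK1 (YFR053C), HXK2 (YGL253W), GLK1 (YCL040W) and EMI2 (YDR516C). They were taken by their systematic names from the 6692 yeast features of the deposited count table, and all 4 carry the same symbols at the same coordinates in RefSeq. Whole-cell RNA was sequenced from 5 groups of 3 libraries, all of mating type a and all carrying his3∆1, leu2∆, met15∆ and ura3∆. The spt3, spt8 and gcn5 groups lacked SPT3, SPT8 or GCN5, each replaced by kanMX4, and received sulfometuron methyl (SM) at 1 µg/ml for 25 min in medium without isoleucine and valine. SM blocks synthesis of those amino acids and thereby induces Gcn4, the activator of amino acid genes. The wild type (WT) was BY4741, with SM in one group and without SM in the other. The labels give 1 strain number for each deletion, and no deletion strain without SM is among the samples, so a level in a deletion strain cannot be split into its level before SM and its response to SM. The labels do not say whether the 3 libraries of a group came from separate cultures, so each p-value rests on a spread that may be technical. The carbon source is not named either. RNA came from bulk cells, so fewer cells with a transcript and less of it per cell cannot be told apart.

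Hexokinases Hxk1 and Hxk2 phosphorylate glucose and fructose, whereas glucokinase Glk1 acts on glucose and not on fructose. Hxk2 is the main isozyme during growth on glucose and also takes part in glucose repression with the repressor Mig1, while HXK1 and GLK1 are known as genes repressed by glucose and induced on other carbon sources. EMI2 is the paralog of GLK1, as HXK1 is of HXK2, and is named for a role in early meiotic induction. In the SAGA coactivator, Gcn5 acetylates histones, while Spt3 and Spt8 act on delivery of the TATA-binding protein to promoters.

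Positions are on sacCer3, the build of the files. HXK1 lies on chromosome VI (253592 to 255049, minus strand), HXK2 on chromosome VII (23935 to 25395, plus strand), GLK1 on chromosome III (50838 to 52340, plus strand) and EMI2 on chromosome IV (1474974 to 1476476, minus strand). Each is listed as a single coding interval of 1458, 1461, 1503 and 1503 bases in that order, without UTRs. Within the 600 bases before the start codon, the pentamer CCCCT, the core of the stress response element bound by Msn2 and Msn4, was found on either strand 5 times for HXK1, 3 times for GLK1, 2 times for EMI2 and 0 times for HXK2. Of 5662 such windows over protein-coding genes, 40.0% held at least 1 match, 0.353% held 5 or more, 2.53% held 3 or more and 10.97% held 2 or more. The stretches of 130 bases below show these letters in capitals and are read 5′ to 3′ on the coding strand, from the R64 genome. They run from −600 to −471 for HXK1 and from −230 to −101 for the other genes. The HXK1 match at −337 and the EMI2 match at −355 lie outside them. The stretches are printed to show where matches lie, and whether a match bears on the mRNA level was not tested.
HXK1 upstream, chrVI:255520-255649, minus strand: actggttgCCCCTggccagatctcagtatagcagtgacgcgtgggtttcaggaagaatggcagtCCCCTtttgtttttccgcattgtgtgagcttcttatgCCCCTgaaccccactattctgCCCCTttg
GLK1 upstream, chrIII:50608-50737, plus strand: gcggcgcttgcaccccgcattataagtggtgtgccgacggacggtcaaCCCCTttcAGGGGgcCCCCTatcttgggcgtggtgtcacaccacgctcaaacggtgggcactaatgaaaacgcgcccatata
EMI2 upstream, chrIV:1476577-1476706, minus strand: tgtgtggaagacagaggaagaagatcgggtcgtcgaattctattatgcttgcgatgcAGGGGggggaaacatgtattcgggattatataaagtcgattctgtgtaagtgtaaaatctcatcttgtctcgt
HXK2 upstream, chrVII:23705-23834, plus strand: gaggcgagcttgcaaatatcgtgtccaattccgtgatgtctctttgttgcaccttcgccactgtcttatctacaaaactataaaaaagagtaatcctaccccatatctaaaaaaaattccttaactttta

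A match is a description of letters and not of binding. The hexamers CCCCAC and CCCCGC, forms of the box bound by Mig1, were searched on both strands and were present 1 time each upstream of HXK1, GLK1 and EMI2 and 0 times upstream of HXK2, against at least 1 in 16.5% of the 5662 windows. The Gcn4 core TGACTC was found in none of the 4 windows and in 15.5% of all. TATA elements were searched as TATAAAAA, TATAAAAG, TATAAATA, TATAAATG, TATATAAA, TATATAAG, TATATATA and TATATATG on both strands. Each of the 4 genes had at least 1, as did 56.1% of windows. Counted from the first base of the start codon, TATATAAG began at −192 for HXK1, TATAAAAA at −152 for HXK2, TATATAAA at −147 for EMI2 and TATAAATA at −104 for GLK1. GLK1 also had 10 overlapping matches within a TA repeat from −516, and HXK2 had CTTTTATA, the reverse complement of TATAAAAG, at −106.

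**Figure D1:**
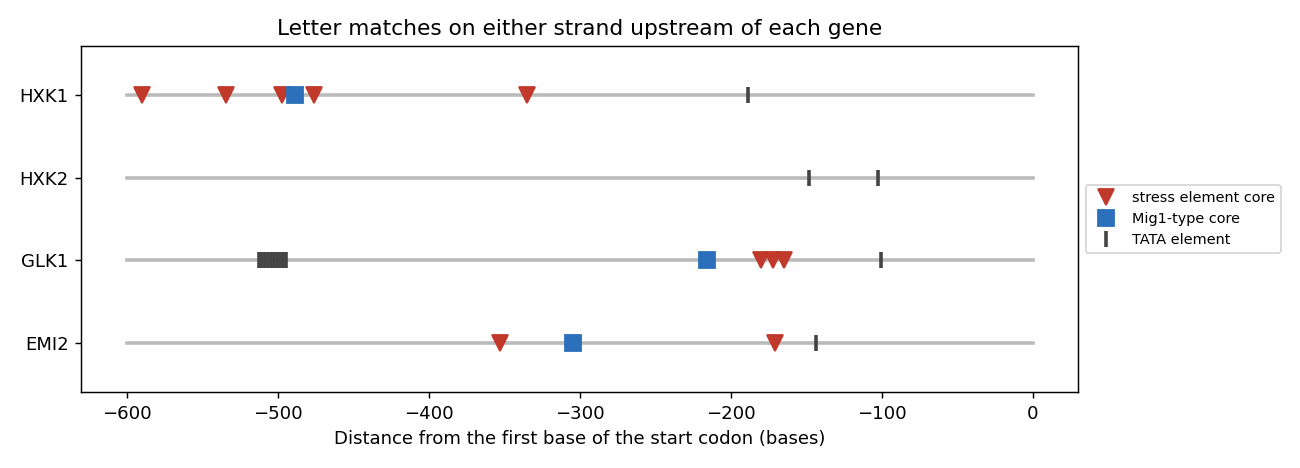
Letter matches in the 600 bases before each start codon (x axis, bases from the first base of the start codon; 1 row per gene; triangles CCCCT, squares CCCCAC or CCCCGC, vertical ticks TATA elements, all on either strand). HXK1 carries 5 triangles, GLK1 3, EMI2 2 and HXK2 0, and each row has at least 1 tick.

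The coding sequences are far enough apart to tell most reads from one another. HXK1 and HXK2 share 77.7% of 1458 aligned bases and GLK1 and EMI2 share 68.7% of 1500, while the pairs across these duplicates share 52.2% to 55.5%. The longest run identical between HXK1 and HXK2 is 23 bases, starting at coding base 247 in both, and the longest between GLK1 and EMI2 is 15. Capitals below mark the 23 bases.
HXK1, coding bases 228 to 288, chrVI:254762-254822, minus strand: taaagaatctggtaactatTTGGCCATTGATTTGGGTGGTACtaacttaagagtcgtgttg
HXK2, coding bases 228 to 288, chrVII:24162-24222, plus strand: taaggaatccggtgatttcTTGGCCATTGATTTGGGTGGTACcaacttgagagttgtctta

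Other features of the table overlap HXK1 and GLK1 on the same strand. YFR052C-A covers 143 bases at the 3′ end of HXK1, 9.81% of the gene, and YCL042W covers 106 bases at the 5′ end of GLK1, 7.05% of the gene. How a fragment in an overlap was counted is not stated. In the spt3 strain YFR052C-A was lower than in WT with SM by a log2 fold change of −4.11 (edgeR BH-adjusted p = 7.48e-16) and YCL042W by −2.07 (edgeR BH-adjusted p = 1.44e-11).

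Libraries held 24830028 to 45707685 yeast counts. Counts were scaled by ERCC spike-ins added per amount of total RNA, so a scaled count is a level per amount of total RNA. Spike-in scaling moved the median gene by 0.54 log2 in WT with SM against WT without SM, and by 0.11, 0.13 and −0.19 in the spt3, spt8 and gcn5 strains against WT in SM. TMM scaling, which centres most genes on no change, is given for each of the 4 genes where it alters a call, and as counts of calls for the gene lists. The targeted gene had at most 3 raw counts in the spt3 libraries, 17 in the spt8 libraries and 29 in the gcn5 libraries, against at least 711, 668 and 2234 elsewhere for SPT3, SPT8 and GCN5 in that order. The a-cell genes STE2, MFA1, MFA2 and BAR1 had at least 1721 raw counts in every library. Of the alpha-cell genes, MF(ALPHA)1 had 40 to 162, MF(ALPHA)2 18 to 243, STE3 491 to 3094 and SAG1 4155 to 10117. HIS3, of which the labels give the his3∆1 allele, had 1561 to 9425. LEU2, MET15 and URA3 had 70, 82 and 7 in WT library 1 without SM and at most 6 in the others. WT and spt3 libraries carry one library name prefix and spt8 and gcn5 libraries another, so the prefix and the genotype cannot be told apart in comparisons of spt8 or gcn5 with WT or spt3.

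HXK1 had the widest range of the 4 genes. It had 1119, 843 and 1196 scaled counts in the spt3 libraries, 1943, 2405 and 3475 in the spt8 libraries, and 5091, 4619 and 7699 in the gcn5 libraries. WT libraries had 14006, 17670 and 14489 with SM and 40895, 38633 and 37655 without SM. No group overlapped another, and the order from low to high was spt3, spt8, gcn5, WT with SM, WT without SM. How many of all genes lack overlap is not given, so overlap is described here and is not used as a test. Ranked by counts per kb within a library, where 1 is the most abundant of 6692 features, HXK1 stood at 5219 to 5456 in spt3, 3548 to 4607 in spt8, 1653 to 1934 in gcn5, 589 to 699 in WT with SM and 174 to 195 in WT without SM.

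HXK2 was lower in all libraries with SM than in those without it, and no strain was called different from WT with SM. It had 21536, 15651 and 16820 scaled counts in the spt3 libraries, 17697, 20403 and 20219 in the spt8 libraries, and 19758, 19204 and 23089 in the gcn5 libraries. WT libraries had 16326, 18289 and 16195 with SM and 38258, 42223 and 42848 without SM. Neighbours in the order of means among the 4 groups with SM (gcn5, spt8, spt3, WT) overlapped each other, whereas WT without SM lay above them all. Its rank was 489 to 491 in spt3, 460 to 463 in spt8, 351 to 385 in gcn5, 533 to 580 in WT with SM and 163 to 188 in WT without SM.

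GLK1 had the most counts per kb of the 4 in WT under both conditions. It had 11577, 9654 and 11922 scaled counts in the spt3 libraries, 15507, 19100 and 23294 in the spt8 libraries, and 19678, 15950 and 19812 in the gcn5 libraries. WT libraries had 42414, 50753 and 43360 with SM and 51039, 50016 and 47894 without SM. WT with and without SM overlapped, as did spt8 and gcn5, and spt3 lay below all other groups.

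EMI2 had the fewest counts per kb of the 4 except in spt3 and spt8, where HXK1 had fewer. It had 2045, 2098 and 2477 scaled counts in the spt3 libraries, 3393, 3684 and 4413 in the spt8 libraries, and 1548, 1534 and 2020 in the gcn5 libraries. WT libraries had 4519, 5700 and 5063 with SM and 8810, 8208 and 9474 without SM. Here the gcn5 libraries were the lowest and those of spt3 came next, without overlap between neighbouring groups.

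**Figure D2:**
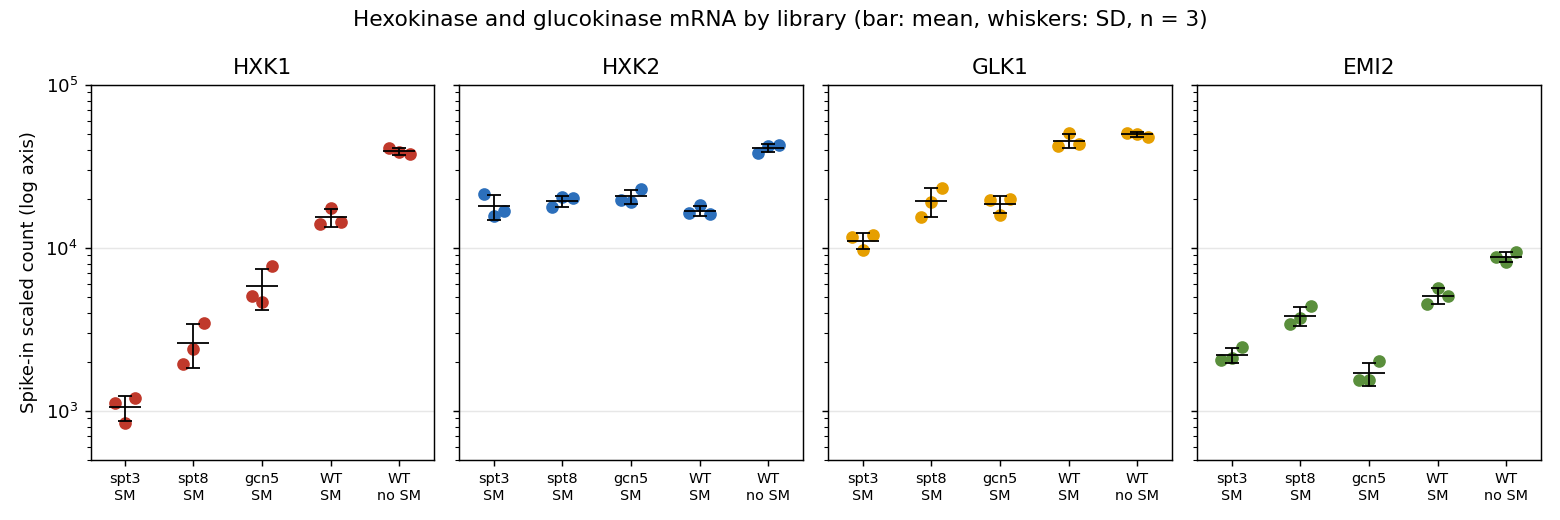
Spike-in scaled counts (y axis, log scale) of each gene in the 15 libraries, by group (x axis); points are libraries, bars means and whiskers SD, n = 3 per group. HXK1 steps down from WT without SM to spt3 with no overlap, HXK2 stays between 15651 and 23089 in every library with SM, and EMI2 is lowest in gcn5.

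With SM in WT, HXK1, HXK2 and EMI2 fell and GLK1 did not pass the test. Over all 6564 genes tested, 7.57% were called lower and 55.7% higher, and 3 of the 4 genes were called lower. HXK1 averaged 15389 ± 1991 scaled counts with SM and 39061 ± 1662 without SM (SD, n = 3 each), a log2 fold change of −1.34 (SE 0.20, edgeR BH-adjusted p = 3.85e-07). HXK2 averaged 16937 ± 1173 with SM and 41109 ± 2490 without SM (−1.28, SE 0.16, edgeR BH-adjusted p = 1.19e-08). From the lowest upward, these were the log2 fold changes at places 24 and 31 of 6564. EMI2 averaged 5094 ± 591 with SM and 8830 ± 633 without SM (−0.79, SE 0.18, edgeR BH-adjusted p = 0.000172). GLK1 averaged 45509 ± 4566 with SM and 49650 ± 1604 without SM. Its log2 fold change was −0.13 with a 95% interval of −0.46 to 0.21 (edgeR BH-adjusted p = 0.517), and with TMM scaling, which called 78.5% of genes, it was called lower at −0.62 (edgeR BH-adjusted p = 0.000322).

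The 3 comparisons of a deletion strain with WT share the same 3 WT libraries with SM. Without Spt3, HXK1, GLK1 and EMI2 fell and HXK2 did not pass the test. Among all genes 14% were called lower and 21.7% higher. HXK1 was 14.6-fold lower, at 1053 ± 186 scaled counts in spt3 and 15389 ± 1991 in WT with SM (log2 fold change −3.87, SE 0.22, edgeR BH-adjusted p = 3.29e-16), and only 3 of 6564 genes had a lower log2 fold change. Those 3 included the deleted SPT3 (−8.73) and YFR052C-A (−4.11), which overlaps HXK1. GLK1 was 4.12-fold lower, at 11051 ± 1222 in spt3 and 45509 ± 4566 in WT with SM (−2.04, SE 0.17, edgeR BH-adjusted p = 3.07e-12). EMI2 was 2.31-fold lower, at 2207 ± 236 in spt3 and 5094 ± 591 in WT with SM (−1.21, SE 0.18, edgeR BH-adjusted p = 1.23e-06). HXK2 averaged 18002 ± 3116 in spt3 and 16937 ± 1173 in WT with SM, a log2 fold change of 0.09 with a 95% interval of −0.24 to 0.41 (edgeR BH-adjusted p = 0.705). With TMM scaling, which called 65.3% of genes, that value was −0.02 and again not called. The HXK2 level in spt3 was 15609 ± 228 by TMM, a smaller spread than by spike-ins.

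Without Spt8, HXK1 and GLK1 fell, and neither EMI2 nor HXK2 passed the test. Here 5.58% of all genes were called lower and 6.57% higher, and 2 of the 4 genes were called lower. HXK1 was 5.90-fold lower, at 2607 ± 786 scaled counts in spt8 and 15389 ± 1991 in WT with SM (log2 fold change −2.56, SE 0.21, edgeR BH-adjusted p = 2.21e-11), the eighth place from the lowest. Lower values included those of the deleted SPT8 (−6.38) and of YFR052C-A (−2.73), which overlaps HXK1. GLK1 was 2.36-fold lower, at 19300 ± 3898 in spt8 and 45509 ± 4566 in WT with SM (−1.24, SE 0.17, edgeR BH-adjusted p = 6.64e-07). EMI2 averaged 3830 ± 526 in spt8 and 5094 ± 591 in WT with SM. Its log2 fold change of −0.41 (SE 0.18, 95% interval −0.77 to −0.06) gave an edgeR BH-adjusted p of 0.123. It was called with TMM scaling, which called 45% of genes (−0.54, edgeR BH-adjusted p = 0.00257), and in a fit of only these 2 groups (edgeR BH-adjusted p = 0.0034). HXK2 averaged 19440 ± 1512 in spt8 and 16937 ± 1173 in WT with SM (0.20, 95% interval −0.13 to 0.52, edgeR BH-adjusted p = 0.446).

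Without Gcn5, HXK1, GLK1 and EMI2 fell and HXK2 did not pass the test, in a comparison in which 30.4% of all genes were called lower and 10.5% higher. EMI2 had the lowest log2 fold change of the 4, at 1701 ± 276 scaled counts in gcn5 and 5094 ± 591 in WT with SM (−1.58, SE 0.18, edgeR BH-adjusted p = 6.97e-09). HXK1 was 2.65-fold lower, at 5803 ± 1659 in gcn5 and 15389 ± 1991 in WT with SM (−1.41, SE 0.20, edgeR BH-adjusted p = 7.39e-07). GLK1 was 2.46-fold lower, at 18480 ± 2192 in gcn5 and 45509 ± 4566 in WT with SM (−1.30, SE 0.17, edgeR BH-adjusted p = 7.02e-08). HXK2 averaged 20684 ± 2101 in gcn5 and 16937 ± 1173 in WT with SM (0.29, 95% interval −0.04 to 0.61, edgeR BH-adjusted p = 0.15). With TMM scaling, which called 67.5% of genes, HXK2 was called higher at 0.50 (edgeR BH-adjusted p = 1.39e-05). Library 3 of gcn5 stood apart from its replicates, with a chi-square per degree of freedom over genes of 74.6 and 100.4 against them, where other replicate pairs gave 10.2 to 35.6. Without it HXK1 was at −1.65, GLK1 at −1.34, EMI2 at −1.71 and HXK2 at 0.21, with the same calls.

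The deletion strains differed from one another in HXK1, GLK1 and EMI2. Between spt3 and spt8, 2.39% of genes were called lower in spt3 and 1.1% higher, and HXK1 (−1.31, edgeR BH-adjusted p = 0.000102), GLK1 (−0.80, edgeR BH-adjusted p = 0.003) and EMI2 (−0.80, edgeR BH-adjusted p = 0.00633) were all called lower in spt3. Without spt8 library 3, whose HXK1, GLK1 and EMI2 counts were the highest of the 3, the GLK1 and EMI2 calls ended (−0.64 and −0.68, edgeR BH-adjusted p = 0.103 and 0.142). Between spt3 and gcn5, where 9.72% of genes were called lower in spt3 and 37.3% higher, HXK1 (−2.46, edgeR BH-adjusted p = 6.01e-12) and GLK1 (−0.74, edgeR BH-adjusted p = 0.000358) were lower in spt3. EMI2 was at 0.38 in that comparison (edgeR BH-adjusted p = 0.077), and was called higher in spt3 with DESeq2 (adjusted p = 0.0478) and without gcn5 library 3 (0.51, edgeR BH-adjusted p = 0.00227). With TMM scaling the EMI2 value was 0.10 and the groups overlapped (edgeR BH-adjusted p = 0.521). Between spt8 and gcn5, where 7.75% of genes were called lower in spt8 and 37.1% higher, HXK1 was lower in spt8 (−1.15, edgeR BH-adjusted p = 1.89e-05) and EMI2 was higher in spt8 (1.17, edgeR BH-adjusted p = 1.95e-06). GLK1 did not pass there (0.06, 95% interval −0.27 to 0.39, edgeR BH-adjusted p = 0.776), and TMM scaling put it at −0.29, not called. HXK2 was called in none of these 3 comparisons by spike-ins, at −0.11, −0.20 and −0.09 in the same order. TMM scaling, which called 31.1%, 64.3% and 62.3% of genes in them, called HXK2 lower in spt3 (−0.52) and in spt8 (−0.43) than in gcn5.

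**Figure D3:**
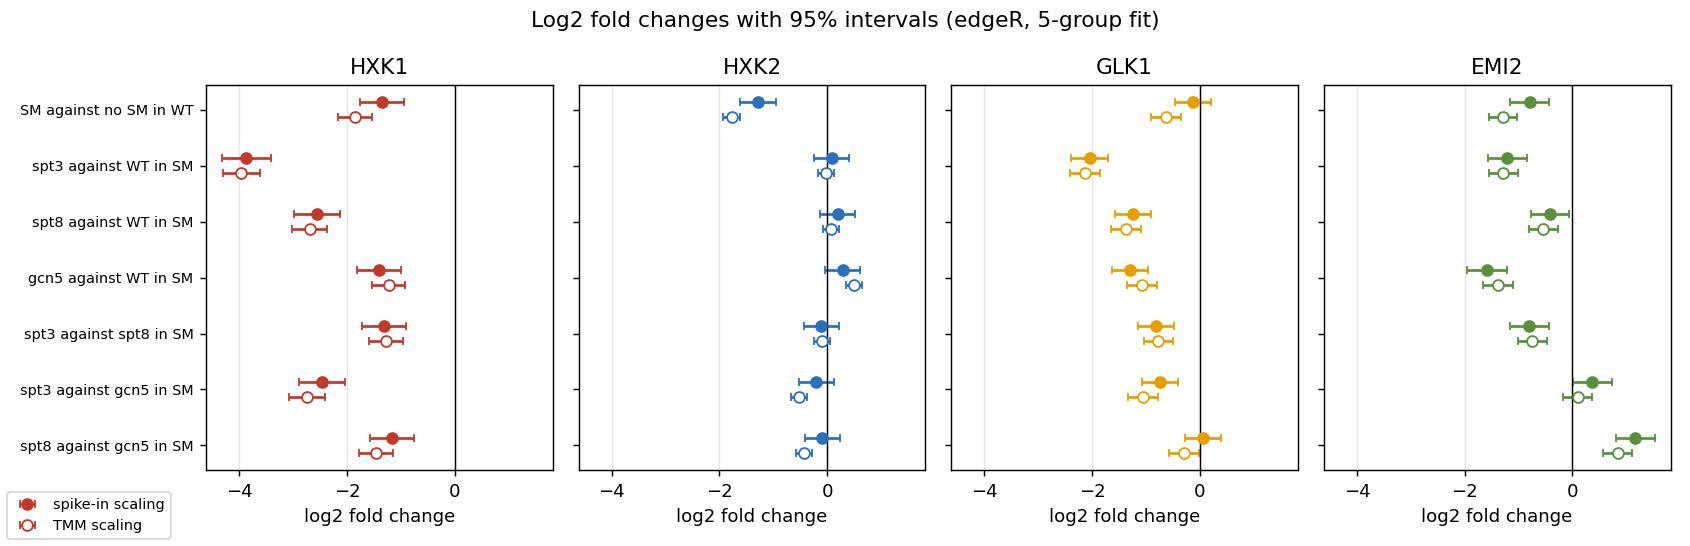
Log2 fold change (x axis) of each gene in the 7 comparisons (rows), with 95% intervals from edgeR; filled points use spike-in scaling and open points TMM scaling. HXK2 lies away from 0 only for SM in WT by spike-ins, at −1.28, while HXK1 lies below 0 in every row and reaches −3.87 in spt3.

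The makeup of the 4-gene total needs no scaling between libraries. A share also depends on the levels of the other genes, so it can rise without a rise in level. As a share of the summed counts per kb, HXK2 held 56.2% ± 3.73 in spt3, 44.0% ± 3.53 in spt8, 44.9% ± 1.87 in gcn5, 20.8% ± 0.68 in WT with SM and 30.0% ± 1.90 in WT without SM (SD, n = 3 each). HXK1 held 3.30% ± 0.39, 5.79% ± 0.95, 12.5% ± 2.05, 18.9% ± 0.54 and 28.5% ± 1.13 in the same groups. GLK1 held 54.2% ± 0.05 in WT with SM and 35.2% ± 0.99 in WT without SM, and between 33.7% and 41.9% on average in the deletion strains. EMI2 held 6.79% ± 1.09 in spt3, 8.37% ± 0.37 in spt8 and 3.58% ± 0.24 in gcn5. Its share was 6.07% ± 0.27 in WT with SM and 6.26% ± 0.48 in WT without SM. The EMI2 share was thus not lower in spt3 than in WT with SM, although its level was called lower there. GLK1 was the leading transcript in both WT groups, and HXK2 on average in each of the deletion strains. The summed spike-in scaled counts per kb were 21865 ± 2732 in spt3, 30484 ± 4326 in spt8, 31564 ± 3850 in gcn5, 55815 ± 5562 in WT with SM and 93838 ± 448 in WT without SM, and each deletion strain lay below both WT groups in every library.

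**Figure D4:**
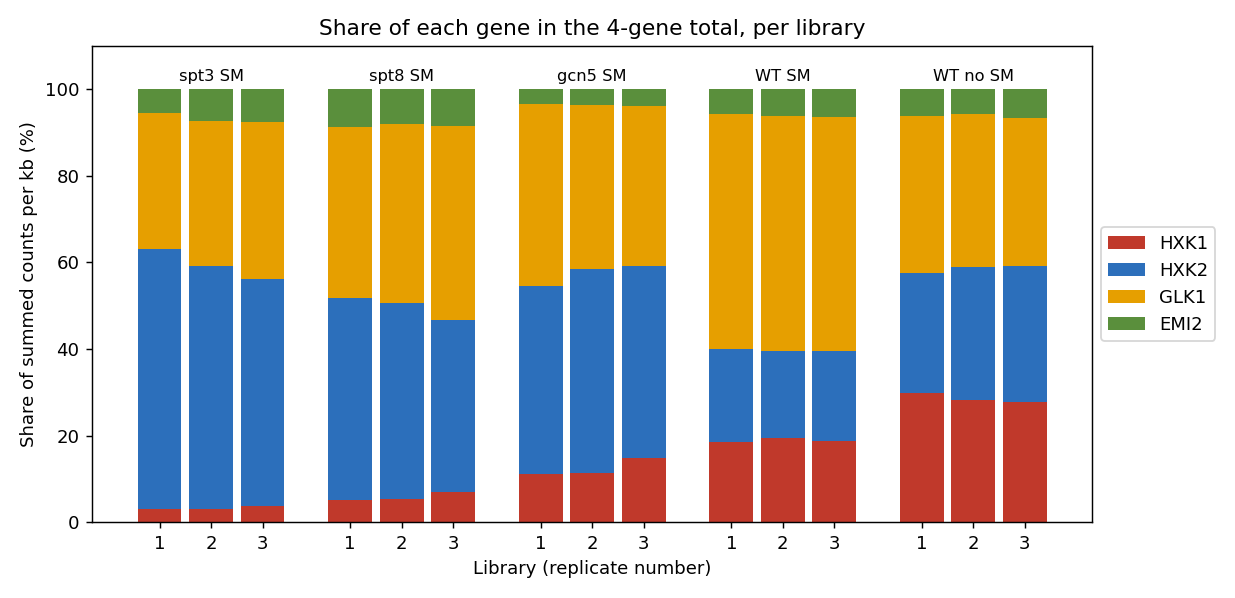
Share of each gene in the summed counts per kb of the 4 (y axis, percent) for the 15 libraries (x axis, replicate number within each group). HXK1 narrows to 3.30% on average in spt3, and HXK2 widens to 56.2% there, against 18.9% and 20.8% in WT with SM.

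Ratios within a library separated the hexokinase pair in the deletion strains but not by SM in WT. The log2 ratio of HXK1 to HXK2, in counts per kb, was −0.14 ± 0.09 in WT with SM and −0.07 ± 0.15 in WT without SM, and these groups overlapped (difference −0.07, exact two-sided permutation p = 0.6). It was −4.10 ± 0.25 in spt3, −2.93 ± 0.35 in spt8 and −1.86 ± 0.25 in gcn5, or a HXK2 level 14.0-fold to 19.2-fold, 5.81-fold to 9.09-fold and 2.99-fold to 4.15-fold above that of HXK1 in single libraries. Each strain lay below WT with SM without overlap (differences −3.95, −2.79 and −1.72). The log2 ratio of EMI2 to GLK1 fell to −3.16 ± 0.07 in WT with SM, against −2.49 ± 0.14 in WT without SM. It was −2.32 ± 0.16 in spt3, −2.32 ± 0.11 in spt8 and −3.45 ± 0.20 in gcn5, so the spt3 and spt8 libraries were above WT with SM (by 0.84 each) and the gcn5 libraries below it (difference −0.29), without overlap. Without gcn5 library 1 that last difference was −0.17. The spt3 and spt8 libraries overlapped (exact two-sided permutation p = 1). With 3 libraries a group the smallest exact two-sided p is 0.1. This was reached in 12 of the 14 ratio comparisons, 0.117 after BH adjustment over the 14, so none can pass 0.05.

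**Figure D5:**
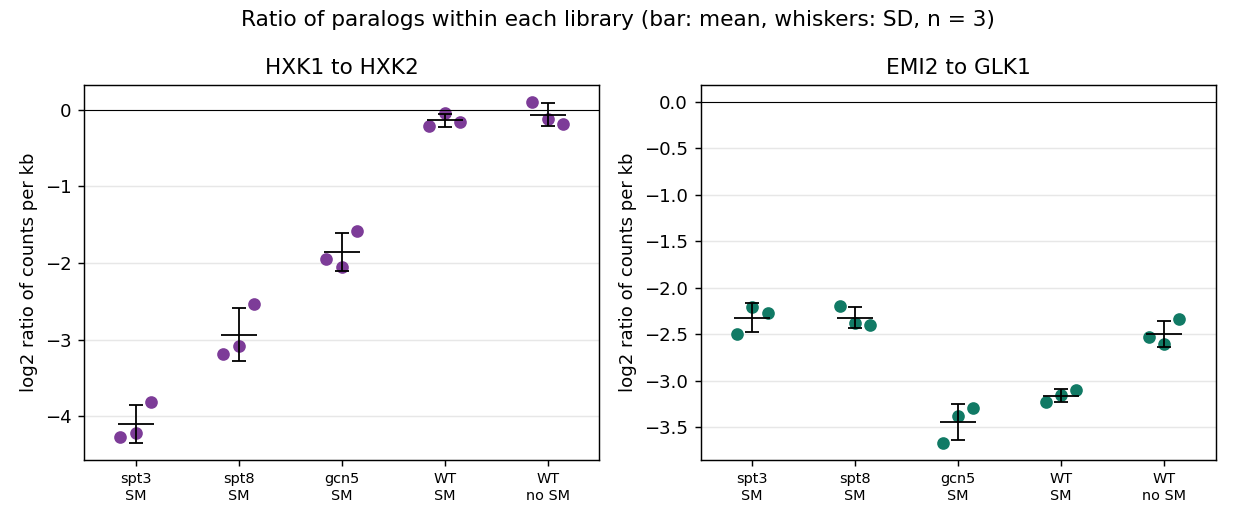
Log2 ratio of counts per kb within each library (y axis) for HXK1 to HXK2 and EMI2 to GLK1, by group (x axis); points are libraries, bars means and whiskers SD, n = 3. The hexokinase ratio is near 0 in both WT groups and reaches −4.10 in spt3; the EMI2 to GLK1 ratio is −2.32 in spt3 and spt8 and −3.45 in gcn5.

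Genes with the most similar pattern were sought among 4952 other named genes. They had the smallest root mean square difference of log2 group means over the 5 groups, each centred on its own mean. For HXK1 they were TKL2, a transketolase (0.44 log2), GPH1, glycogen phosphorylase (0.46), and SOL4, a phosphogluconolactonase (0.46). For HXK2 they were HRI1 (0.11), TUB2, beta-tubulin (0.12), and LIP1, a subunit of ceramide synthase (0.12). TUB2, for one, averaged 6550 scaled counts in spt3, 6694 in spt8, 6177 in gcn5, 6322 in WT with SM and 13491 in WT without SM. For GLK1 they were TDA10 (0.11), MSC1 (0.12) and BDH2 (0.13). For EMI2 they were PNC1, nicotinamidase (0.09), OPI3, a phospholipid methyltransferase (0.11), and GIP2, a regulatory subunit for the phosphatase Glc7 (0.14). The members were not each other's nearest: EMI2 was 0.47 from GLK1, and HXK1 was 1.57 from HXK2. Had identifiers without a gene name been allowed, the 3 nearest to GLK1 would have been YPR137C-A (0.055), YCL042W (0.08) and YDR365W-A (0.09). Of these, YCL042W overlaps GLK1. This check was chosen after the values were seen.

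NGK1 (YLR446W), a gene related to hexokinases in sequence that shares 51.4% to 52.7% of aligned coding bases with the 4 genes, moved the other way with SM. It averaged 6207 ± 774 scaled counts in WT with SM and 2341 ± 33 without SM (1.41, SE 0.18, edgeR BH-adjusted p = 2.34e-08). Against WT in SM it was lower in gcn5 (−1.28, edgeR BH-adjusted p = 7.37e-07) and was not called in spt8 (0.06, edgeR BH-adjusted p = 0.88). In spt3 it was not called by spike-ins (−0.41, edgeR BH-adjusted p = 0.0774) and was called lower with TMM scaling (−0.50, edgeR BH-adjusted p = 6.96e-06).

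The counts of the 5 gene lists that follow are to be read against all genes, of which 55.7% were called higher and 7.57% lower with SM, 21.7% and 14% in spt3, 6.57% and 5.58% in spt8, and 10.5% and 30.4% in gcn5. The first list held 8 genes of steps that use or make glucose 6-phosphate, the product of these kinases, or follow such a step. Of the 8, 4 fell and 1 rose with SM in WT. Those that fell included PGM2, the main phosphoglucomutase (log2 fold change −1.12), PGI1, the isomerase of the next glycolytic step (−0.77), and PFK1, a phosphofructokinase subunit (−0.52). The median of the 8 was −0.35, where all genes had 0.54. In spt3 4 of 8 fell and 1 rose (median −0.32), in spt8 2 fell and 0 rose (−0.15), and in gcn5 4 fell and 0 rose (−0.63), where all genes had 0.11, 0.13 and −0.19. PGM2 fell in each strain (−2.28 in spt3, −1.34 in spt8 and −1.58 in gcn5). UGP1, which makes UDP-glucose, also fell in each (−0.98, −0.53 and −1.19), and TPS1, trehalose phosphate synthase, fell in spt3 (−0.59) and gcn5 (−1.55). With TMM scaling 7 of the 8 were called lower and 0 higher with SM, 4 and 2 in spt3, 4 and 2 in spt8, and 4 and 3 in gcn5.

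Genes repressed on glucose, the class to which HXK1 and GLK1 are usually assigned, were mostly called lower in spt3 and spt8. With SM 7 of 11 rose and 1 fell (median 0.85, where all genes had 0.54), a share near that of all genes, led by PCK1, the gluconeogenic carboxykinase (1.77), the lactate permease gene JEN1 (1.58) and MLS1, malate synthase (1.30). In spt3 8 of 11 fell and 0 rose (median −1.02), led by FBP1, fructose bisphosphatase (−1.98), CAT8, an activator of gluconeogenic genes (−1.33), and MLS1 (−1.18). In spt8 7 fell and 0 rose (median −0.82), led by FBP1 (−1.26) and PCK1 (−1.07). In gcn5 4 fell and 3 rose (median −0.24), with MLS1 at −1.96, FBP1 at −1.17 and CAT8 at 0.99. With TMM scaling 7 were called higher and 4 lower with SM, 0 and 10 in spt3, 0 and 10 in spt8, and 4 and 4 in gcn5. In gcn5, CAT8 averaged 4018 ± 1892 scaled counts and in WT with SM 2027 ± 306.

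Of 17 regulators of glucose repression, 7 rose and 3 fell with SM in WT, a smaller share higher than among all genes. The largest changes were in the repressor genes NRG1 (2.35), NRG2 (1.86) and MIG3 (1.67). In spt3 4 rose and 2 fell, in spt8 2 rose and 1 fell, and in gcn5 2 rose and 3 fell. MIG2, a repressor related to Mig1, fell in spt3 (−1.38) and spt8 (−0.77) and rose in gcn5 (0.62). MIG3 rose in both spt3 and spt8 (0.99 each). The list medians minus those of all genes were −0.31 with SM, −0.07 in spt3, −0.10 in spt8 and 0.12 in gcn5. With TMM scaling 4 were called higher and 10 lower with SM, 7 and 7 in spt3, 5 and 5 in spt8, and 6 and 5 in gcn5.

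Of 14 genes of protein kinase A signalling and Msn2 and Msn4 control, 3 rose and 1 fell with SM, again a smaller share higher than among all genes, with the cAMP phosphodiesterase gene PDE2 and the kinase gene YAK1 both at 1.10. In spt3 4 fell and 0 rose, among them MSN4 (−1.17) and the transcription factor gene GIS1 (−0.86). In spt8 MSN4 was the 1 gene called lower by spike-ins (−0.90), and in gcn5 8 fell and 0 rose, among them RAS2 (−1.08) and GIS1 (−0.78). The list medians minus those of all genes were −0.22 with SM, −0.28 in spt3, −0.14 in spt8 and −0.34 in gcn5. With TMM scaling 3 were called higher and 7 lower with SM, 1 and 9 in spt3, 0 and 6 in spt8, and 0 and 8 in gcn5. Of 4 activators of glycolytic genes, TYE7 fell with SM (−0.81), and in spt3 RAP1 and GCR2 rose (0.72 and 0.51). None of the 4 was called in spt8 or gcn5 by spike-ins, where GCR1 was at 0.06 and −0.44, RAP1 at 0.46 and −0.24, and TYE7 at −0.47 and 0.33. With TMM scaling 0 were called higher and 4 lower with SM, 2 and 1 in spt3, 1 and 1 in spt8, and 1 and 1 in gcn5. The list medians minus those of all genes were −0.53, 0.28, 0.04 and 0.09 in the same order.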

How the data were processed

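The deposited table holds raw fragment counts per feature, made by the authors. The submitters' processing notes name STAR, SAMtools, DESeq2 and the build sacCer3, without versions. Per the labels, the library kit was stranded; the counter, its strand setting and its handling of shared reads are not stated. All 4 members matched RefSeq (R64), and each of 5665 coding features at equal coordinates starts with ATG there.

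Size factors were medians of ratios over the 74 of 92 spike-ins seen in every library. Tests used edgeR 4.0.16 quasi-likelihood (R 4.3.3) over all 5 groups and 6564 genes kept by filterByExpr, with Benjamini-Hochberg (BH) adjustment over all of them and calls at 0.05. SE was derived from the log2 fold change and its F statistic. The likeness measure used log2(scaled count + 1) and genes with a mean of at least 10 CPM. The common coefficient of variation was 16.1% by spike-ins and 7.86% with TMM. Alternatives were TMM, DESeq2 1.42.0, no filter, a replicate block, 2-group fits and leaving out each library. The fit was also run on data simulated with the same spike-in factors that it then used, so error in those factors was not covered. Tables, alignments (Biopython 1.88) and figures used Python 3.11.15, scipy 1.17.1 and matplotlib 3.10.9.

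The members and the 5 gene lists were chosen with earlier results of these data known. For each list, up to 3 called genes are named by size of change, or the most abundant where no gene was called; others are named for comparison across strains. Likeness candidates needed a RefSeq symbol other than the locus tag. Counts per replicate pair differed by more than sampling noise, so all 15 libraries were kept. One gene of the lists is counted in its list but not reported by name here.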

Additional observations from a re-analysis of the deposited data

How the results depend on the processing

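Of 28 fold changes (4 genes in 7 comparisons), leaving out the filter kept the direction and call of all 28. TMM scaling called GLK1 lower with SM in WT (−0.62), EMI2 lower in spt8 (−0.54), and HXK2 higher in gcn5 (0.50) and lower in spt3 and spt8 than in gcn5 (−0.52 and −0.43). It turned HXK2 in spt3 (−0.019) and GLK1 in spt8 against gcn5 (−0.29), neither called. DESeq2 called EMI2 in spt3 against gcn5 (0.38), and a fit of only the 2 groups called EMI2 in spt8 (−0.42). Leaving out 1 library at a time kept 162 of 168 values. The others lie in these ranges: HXK2 in spt3 −0.053 to 0.17, GLK1 and EMI2 in spt3 against spt8 −0.93 to −0.64 and −0.88 to −0.68, EMI2 in spt3 against gcn5 0.29 to 0.51, and GLK1 in spt8 against gcn5 −0.093 to 0.19. The HXK1 to HXK2 ratio with SM ran from −0.13 to 0.013, and the EMI2 to GLK1 ratio in spt3 against spt8 from −0.062 to 0.087; in gcn5 against WT the EMI2 to GLK1 ratio ran from −0.36 to −0.17. The cause was not tested. Undivided by length, the GLK1 share in WT with SM was 54.9%.

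Same-numbered deviations correlated at −0.37 to 0.23 over the comparisons, so pairing by replicate number could not be settled. With the replicate number as a block, all 28 calls were the same (HXK1 in spt3 −3.89, EMI2 in spt8 −0.42, edgeR BH-adjusted p = 0.181). Each of the 3 libraries correlated best with its own number in spt3 against spt8 and in spt8 against WT, a hint from the data and not the design. The lowest raw count of a member was 948.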
